A study of Homo sapiens with 38 samples.

Results

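The 9 genes described here encode the core of 2 cullin-RING ubiquitin ligases. CRBN, DDB1, CUL4A, CUL4B and RBX1 make up the cereblon ligase, and VHL, CUL2, ELOB and ELOC, with RBX1, make up the VHL ligase. They were chosen by name, as 9 of the 23916 genes that appear in any of 15 deposited tables, each of which sets 1 compound beside DMSO. All 9 were listed in all 15 tables, and all 9 passed the filter on low values in every comparison. ELOB and ELOC carry their older symbols TCEB2 and TCEB1 in the T47D-TR tables.

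A cullin-RING ligase transfers ubiquitin to a protein that its substrate receptor holds. The cullin is the scaffold, RBX1 recruits the ubiquitin-loaded E2 enzyme, and an adaptor (DDB1 for CUL4, the elongin B and C pair for CUL2) joins the receptor to the cullin. Cereblon is the receptor bound by thalidomide-like drugs, and VHL is the receptor that recognises hydroxylated hypoxia-inducible factors. Heterobifunctional degraders bring a target protein to 1 of these receptors, and MS177 is known to act through cereblon.

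RNA sequencing of polyadenylated transcripts covered 38 samples of 3 established human breast cancer lines, in 19 groups of 2 samples. T47D, T47D-TR and BT-549 cells each received MS177 (a degrader of the histone methyltransferase EZH2), MS177-N1 or MS177-N2 (its negative controls) or C24 (an EZH2 methyltransferase inhibitor), at 2.5 uM for 48 h, against 0.125% DMSO. T47D-TR cells also received MS8815 (an EZH2 degrader), MS8815-N (its negative control) or EPZ-6438 (an EZH2 methyltransferase inhibitor), at 2.5 uM for 30 h, against 0.05% DMSO. All groups grew in medium with serum and insulin, no group carries a genetic change by the labels, and the labels do not say how T47D-TR was made or whether replicates were separate cultures, so p-values measure the spread between these samples only.

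Depth was 32.1 to 49.9 M reads per library in T47D and BT-549, counted over the genes listed, and is not known for T47D-TR. MS177-N1 in T47D has 1 library, because the second treated column of its table is named for MS177-N2 and equals MS177-N2 replicate 2 at 17724 of 17724 genes. The MS177 pair in T47D stood apart (r = 0.918 between replicates, against 0.988 to 0.991 in the other pairs of that line). At 30 h in T47D-TR, the MS8815 (r = 0.912), EPZ-6438 (0.927) and MS8815-N (0.725) pairs agreed less than the DMSO pair (0.977). Replicate 2 of MS8815-N had 6929 genes at the lowest value. Line markers followed the labels in part. ESR1 had 5083 and 4018 normalized counts in T47D DMSO libraries and was not listed in BT-549, where the mesenchymal marker VIM had 81322 and 76622. VIM had 96.2 and 100 normalized counts in the T47D DMSO libraries. PGR, the progesterone receptor and a luminal marker, had 291.7 and 272.0 normalized counts in the T47D-TR DMSO libraries at 48 h. The other luminal markers ran higher in those libraries. ESR1 had 1442 and 1655, FOXA1 4583 and 5362, EPCAM 4655 and 3544, GATA3 12631 and 14266 and CDH1 14162 and 15254. KRT18 had 44621 and 35678, KRT19 62681 and 50164 and KRT8 129842 and 109733, while VIM had 7.8 and 5.4. Other luminal markers were mixed in the BT-549 DMSO libraries. GATA3 had 6524 and 5961 normalized counts there, and KRT18 20271 and 18198. CDH1 had 606.1 and 676.8, KRT8 355.9 and 403.4, KRT19 96.1 and 74.9 and FOXA1 23.2 and 19.8, and PGR and EPCAM were not listed.

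Values below are normalized counts, obtained by undoing the authors' log2 transform, and folds are ratios of group means. Log2 differences against DMSO (± SE) are on the deposited log2 scale, which is compressed, so they understate the folds of low genes. A gene is said to have risen or fallen only where its Benjamini-Hochberg adjusted p over all tested genes was under 0.05 (limma).

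Promoters of 4 genes that changed with MS177 in T47D-TR are shown, CRBN and ELOB, which rose, and CUL4B and RBX1, which fell. Each is the 250 bases before the RefSeq start (GRCh38.p14), 5′ to 3′ on the gene's strand, and capitals mark matches, on either strand, to the ETS motif CCGGAAG, the E-box CACGTG and the SP/KLF box GGGCGG. The CRE TGACGTCA and the NRF1 motif were also searched and matched none of these windows.
CRBN promoter, chr3:3179718-3179967, minus strand: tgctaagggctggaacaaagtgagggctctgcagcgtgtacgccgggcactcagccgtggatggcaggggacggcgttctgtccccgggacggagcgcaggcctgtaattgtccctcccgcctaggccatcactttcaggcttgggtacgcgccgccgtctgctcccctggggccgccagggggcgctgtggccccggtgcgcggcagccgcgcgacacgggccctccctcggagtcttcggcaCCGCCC
ELOB promoter, chr16:2777281-2777530, minus strand: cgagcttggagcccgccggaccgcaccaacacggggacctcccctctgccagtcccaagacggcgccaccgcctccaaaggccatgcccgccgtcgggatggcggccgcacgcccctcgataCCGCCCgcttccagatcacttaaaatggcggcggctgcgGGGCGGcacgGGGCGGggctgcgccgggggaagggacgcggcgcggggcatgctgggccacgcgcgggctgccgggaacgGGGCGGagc
CUL4B promoter, chrX:120575533-120575782, minus strand: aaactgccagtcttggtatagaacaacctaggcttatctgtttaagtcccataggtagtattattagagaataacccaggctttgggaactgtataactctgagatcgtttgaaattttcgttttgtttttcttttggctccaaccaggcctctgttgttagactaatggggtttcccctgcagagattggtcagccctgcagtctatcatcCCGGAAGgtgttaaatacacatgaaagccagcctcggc
RBX1 promoter, chr22:40951128-40951377, plus strand: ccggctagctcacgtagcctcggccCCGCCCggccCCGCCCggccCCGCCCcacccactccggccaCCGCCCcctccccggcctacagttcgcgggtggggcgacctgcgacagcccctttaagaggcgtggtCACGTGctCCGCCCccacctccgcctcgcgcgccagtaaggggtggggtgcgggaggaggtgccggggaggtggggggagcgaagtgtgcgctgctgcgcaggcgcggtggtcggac
The CRBN window held 1 SP/KLF box at its 3′ end, the ELOB window 4 and the RBX1 window 5, and RBX1 also held 1 E-box. The CUL4B window held 1 ETS motif and no SP/KLF box. Its RefSeq start lies 262 bases downstream of the start of the principal transcript in the annotation used for lengths. The CUL4B window therefore lies inside the gene by that annotation (120524609 to 120575794) and may not be its promoter. CUL4A, which also fell, is not printed, and its window held 8 SP/KLF boxes. Of 35116 RefSeq promoters of the same length, 42.6% held an SP/KLF box, 8.52% the ETS motif, 6.34% the E-box, 1.65% the CRE and 1.03% the NRF1 motif. Of the 9 genes, 7 had a RefSeq entry; VHL and ELOC are named only.

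In vehicle-treated cells the receptors and the CUL2 scaffold were among the lower members, and the adaptors among the higher ones, per kilobase of the principal transcript. In T47D with DMSO, DDB1 had 4479 and ELOB 4183 normalized counts per kb (means of 2 libraries, whose ranges overlapped), ahead of ELOC at 1505, CUL4A at 1350, RBX1 at 1167, VHL at 873.7, CUL4B at 594.2, CRBN at 448.3 and CUL2 at 351.4, and no other neighbours in this order overlapped. In BT-549 with DMSO, ELOB had 4591 and ELOC 2741 normalized counts per kb, and DDB1, CUL4A, CUL4B, RBX1 and VHL lay between 2264 and 1897. Among these, DDB1 overlapped CUL4A, and CUL4B, RBX1 and VHL overlapped in that order, while CRBN at 677.6 and CUL2 at 473.1 were lowest. In T47D-TR with DMSO at 48 h, ELOB and DDB1 overlapped at 1777 and 1700 normalized counts per kb, VHL had 308.7 and CUL2 161.1. At 30 h in the same line, ELOB had 1810 and DDB1 1299 normalized counts per kb with DMSO, CRBN 257.3, and VHL (97.81) and CUL2 (96.9) the least. Levels of T47D-TR carry factors that differ by gene and table (the lowest and highest percentiles of genes differ by −0.28 and 0.69 on the log2 scale between the MS177 and MS177-N1 tables). The order of different genes within T47D-TR is therefore uncertain and is given as a description, and levels were not compared across lines. Between T47D-TR tables, libraries were joined gene by gene through the DMSO libraries the tables share.

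**Figure D1:**
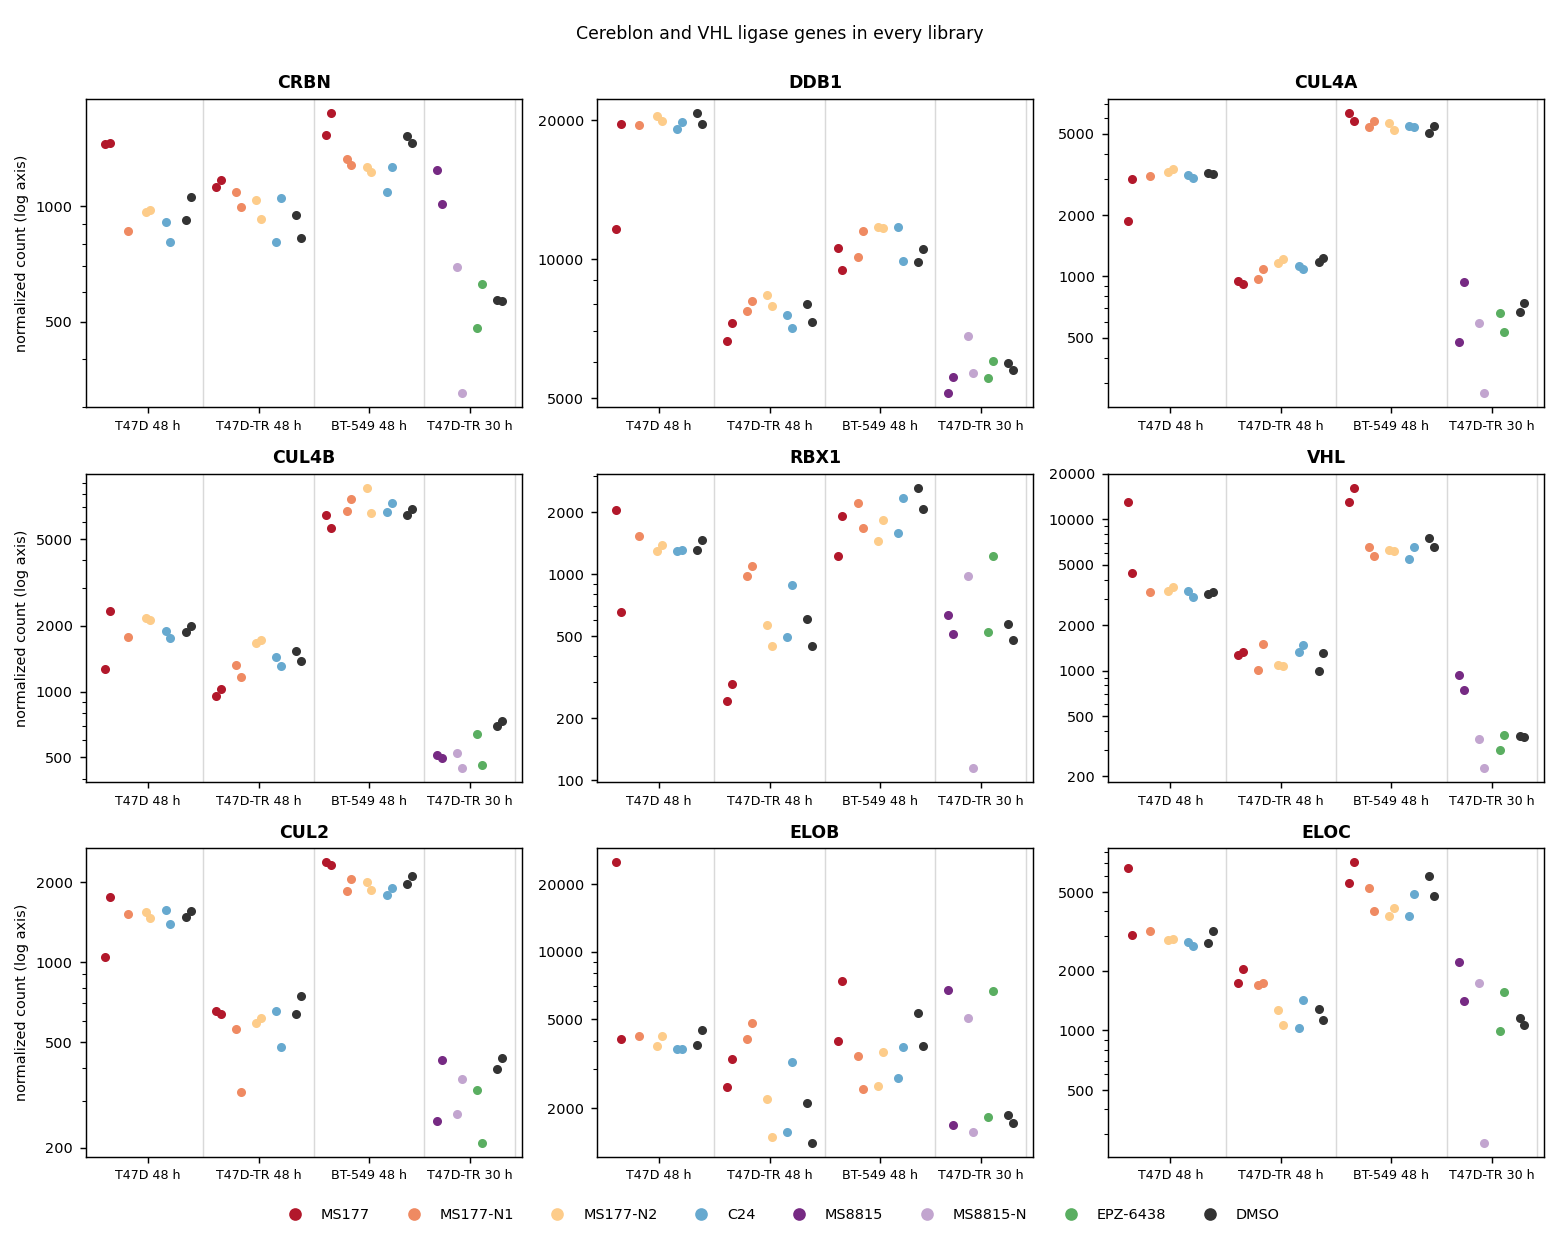
Normalized count of each of the 9 genes (y, log axis) in every library, with the compound-treated libraries left of DMSO in each of 4 blocks of line and time; each point is 1 library. VHL with MS177 in BT-549 (12950 and 16170) lies above every other BT-549 library, and RBX1 with MS177 in T47D-TR (244.0 and 292.6) below every other T47D-TR library at 48 h; heights of different blocks are not comparable.

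MS177 was compared with DMSO to ask how the ligase genes stood after 48 h of a degrader that uses 1 of these ligases. In T47D-TR, 3 of the 9 genes rose (CRBN, ELOB and ELOC) and 3 fell (CUL4A, CUL4B and RBX1). Those 6 calls stand against a background of 62.5% of 10423 tested genes called in this comparison (31.1% higher and 31.4% lower), so the share of members called is near that of all genes. The members' median log2 difference was −0.06, and that of all tested genes 0.00. Of the 9 luminal markers, 2 rose and 5 fell in the same libraries, and their part in the result was not tested. In bulk RNA, fewer cells of a type and less RNA per cell cannot be told apart.

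CRBN, the substrate receptor (hg38 chromosome 3, 3144628 to 3179727), had 1126 and 1169 normalized counts with MS177 in T47D-TR, against 949.3 and 827.1 with DMSO. Both treated libraries lay above both vehicle libraries, a 1.29-fold rise (log2 difference 0.27 ± 0.09, adjusted p = 0.0334). CRBN shares 595 of its 8068 exonic bases (7.4%) with TRNT1 on the opposite strand, and TRNT1 was 1.60-fold higher in the same libraries. No source used here says that counting used strand, so reads from the shared stretch cannot be told apart. The same holds for 5.6% of the exonic bases of CUL4A, shared with PCID2, and 3.7% of those of DDB1, shared with TKFC. In these libraries PCID2 stood at 1.12 and TKFC at 0.352 times the DMSO mean.

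The CUL4 scaffolds and the RING subunit went the other way. CUL4B (chromosome X, 120524609 to 120575794) had 952 and 1033 normalized counts with MS177 in T47D-TR, against 1534 and 1378 with DMSO, a 1.47-fold fall without overlap (log2 difference −0.42 ± 0.09, adjusted p = 0.00603). Its paralog CUL4A (chromosome 13, 113208193 to 113267108) had 954.6 and 923.5 normalized counts with MS177 and 1179 and 1236 with DMSO, a 1.29-fold fall (log2 difference −0.27 ± 0.08, adjusted p = 0.0258). RBX1, which recruits the E2 enzyme (chromosome 22, 40951347 to 40973309), showed the largest fall of the 9 genes in T47D-TR. It had 244.0 and 292.6 normalized counts with MS177 and 605.8 and 451.1 with DMSO, 1.97-fold lower (log2 difference −0.54 ± 0.11, adjusted p = 0.00435). DDB1, the adaptor between CRBN and CUL4, had 6649 and 7297 normalized counts with MS177 and 7996 and 7322 with DMSO. The groups did not overlap, yet the difference did not pass the test (95% interval of the log2 difference −0.39 to 0.13, adjusted p = 0.34).

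Of the VHL ligase, the adaptors rose in T47D-TR while receptor and scaffold did not pass the test. ELOC, elongin C (chromosome 8, 73939169 to 73972287), had 1741 and 2048 normalized counts with MS177, against 1277 and 1125 with DMSO, 1.58-fold higher (log2 difference 0.52 ± 0.11, adjusted p = 0.00415). ELOB, elongin B (chromosome 16, 2771414 to 2777297), had 2479 and 3307 normalized counts with MS177 and 2118 and 1404 with DMSO, 1.64-fold higher (log2 difference 0.62 ± 0.18, adjusted p = 0.0217). Treated libraries were the higher ones for both adaptors, with no overlap. VHL had 1260 and 1329 normalized counts with MS177 and 991.9 and 1315 with DMSO, which overlapped (adjusted p = 0.344). CUL2 had 657.7 and 639.8 normalized counts with MS177 and 640.5 and 749.1 with DMSO, which also overlapped (adjusted p = 0.562). ELOC has 32 named copies in the annotation and ELOB 4, and ELOB shares 16.8% of its exonic bases with SRRM2 on the opposite strand, so how reads were split between these and their copies or partner is uncertain. SRRM2 had 4929 and 6326 normalized counts with MS177 in T47D-TR, against 2607 and 3754 with DMSO. That is 1.77-fold higher, the same direction as ELOB, and the part of shared reads was not tested.

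RBX1 and ELOC kept their T47D-TR calls in each of the 4 fits that left out 1 library. CRBN and CUL4A lost theirs without DMSO replicate 2, without MS177 replicate 1 and without MS177 replicate 2 (adjusted p = 0.118 to 0.181 for CRBN and 0.0671 to 0.176 for CUL4A). ELOB lost its call without DMSO replicate 2 (adjusted p = 0.0791) or MS177 replicate 2 (0.0795), and CUL4B without MS177 replicate 1 (0.0523). With the replicate number as a block, CRBN (adjusted p = 0.09) and CUL4A (0.0908) did not pass. With all T47D-TR libraries of 48 h in 1 fit, CRBN (adjusted p = 0.073) and ELOB (0.109) did not pass.

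In BT-549, VHL (chromosome 3, 10141008 to 10152220) was the member that rose with MS177, and no member fell. VHL had 12950 and 16170 normalized counts with MS177, against 7580 and 6598 with DMSO. The lower treated library stood well above the higher vehicle library, a 2.05-fold rise (log2 difference 1.02 ± 0.16, 95% interval 0.62 to 1.42, adjusted p = 0.0114). That is 1 call among 9 genes, where 27.3% of 14474 tested genes were called (12.9% higher). VHL kept the call in each of the 4 fits that left out 1 library, with log2 differences of 0.86 to 1.18.

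The other BT-549 members moved less. RBX1 had 1225 and 1928 normalized counts with MS177 in BT-549 and 2626 and 2064 with DMSO, lower in both treated libraries (log2 difference −0.57 ± 0.24, adjusted p = 0.137). CRBN had 1537 and 1747 normalized counts with MS177 and 1528 and 1462 with DMSO, higher in both treated libraries by a narrow margin (log2 difference 0.13 ± 0.12, adjusted p = 0.464). CUL4A had 6302 and 5745 normalized counts with MS177, against 5035 and 5444 with DMSO, and CUL4B 6416 and 5629, against 6431 and 6895, both without overlap and neither past the test (adjusted p = 0.247 for CUL4A and 0.407 for CUL4B). The ratio of CUL4A to CUL4B per kb was 1.36 and 1.41 with MS177 in BT-549, against 1.08 and 1.09 with DMSO and 0.904 to 1.12 in the 6 libraries of the other compounds. The same ratio was 2.04 and 1.77 with MS177 in T47D, against 2.38 and 2.18 with DMSO, the other direction, and 1.39 and 1.23 in T47D-TR, against 1.06 and 1.24, which overlapped. DDB1, CUL2, ELOB and ELOC had adjusted p-values from 0.227 to 0.893.

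In T47D, none of 18146 tested genes passed the test with MS177 (limma; 0% called, 3247 at an unadjusted p under 0.05, none of them members), and the 2 treated libraries differed widely. CRBN had 1456 and 1463 normalized counts with MS177, against 921.4 and 1056 with DMSO, and was the member whose treated libraries lay closest to each other (1.48-fold higher, log2 difference 0.55 ± 0.26, adjusted p = 0.344). VHL had 13030 and 4396 normalized counts with MS177, against 3219 and 3311 with DMSO, both above the vehicle (log2 difference 1.21 ± 0.58, adjusted p = 0.355). ELOB had 24980 normalized counts in MS177 replicate 1 and 4092 in replicate 2, against 3823 and 4468 with DMSO, so its mean rests on 1 library. RBX1 was split as well, at 2056 normalized counts in MS177 replicate 1 and 656.4 in replicate 2, against 1312 and 1462 with DMSO. Without MS177 replicate 1 the VHL difference was 0.43 and without replicate 2 it was 1.99, and CRBN and VHL each passed in both fits (adjusted p = 0.00252 or less). Without either DMSO library neither of them passed (adjusted p = 1 for both), and over these 4 fits the calls among all genes ran from 48 to 12368. The remaining members, DDB1, CUL4A, CUL4B, CUL2 and ELOC, had adjusted p-values of 0.52 to 0.831.

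MS8815 was compared with DMSO at 30 h in T47D-TR, where VHL and CRBN had the largest differences of the 9 genes by unadjusted p. VHL had 943.3 and 740.7 normalized counts with MS8815, against 368 and 363 with DMSO, 2.30-fold higher (log2 difference 1.03 ± 0.20, adjusted p = 0.0525). CRBN had 1240 and 1011 normalized counts with MS8815, against 569.1 and 565.9 with DMSO, 1.98-fold higher (log2 difference 0.88 ± 0.19, adjusted p = 0.0639). Both treated libraries of both genes lay above both vehicle libraries, yet neither gene passed the test, nor did any other member (limma; 0 of 9, 3 at an unadjusted p under 0.05; 6.25% of 12064 genes were called). CUL4B, the third, had 512.4 and 496.6 normalized counts with MS8815 and 699.4 and 736.8 with DMSO, 1.42-fold lower (log2 difference −0.45 ± 0.17, adjusted p = 0.167). VHL passed with a stricter filter on low values (adjusted p = 0.0454), with quantile scaling (0.0467), without the mean trend (0.0483) and with the length trend described below removed (0.0456), and CRBN with the last of these (0.0463). Both genes passed without either MS8815 library, with log2 differences of 0.875 and 1.191 for VHL and 0.747 and 1.02 for CRBN. Neither passed without either DMSO library (1.025 and 1.041 for VHL, 0.88 and 0.887 for CRBN). Such fits leave 1 library in a group, and calls over all genes moved widely in them. These passes are therefore not read as a result about these 2 genes. MS8815 was read at 30 h and MS177 at 48 h, each against its own vehicle, so the 2 degraders were not compared.

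**Figure D2:**
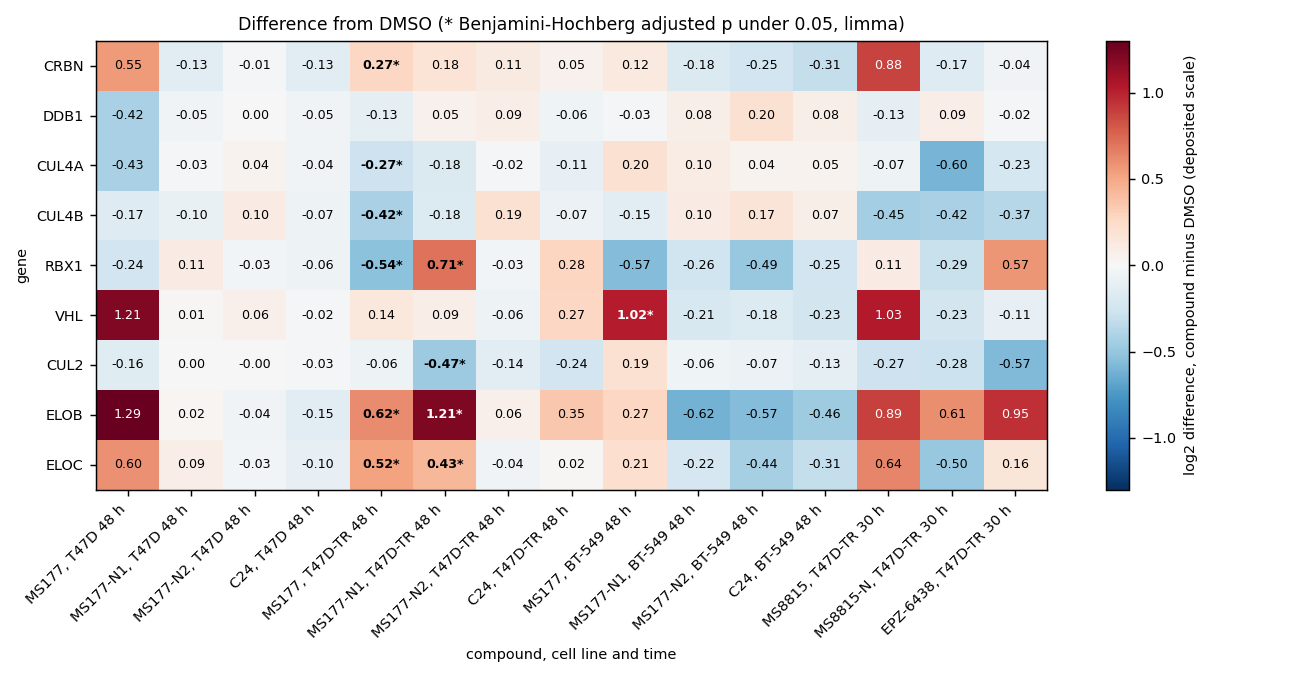
Log2 difference of each gene (rows) in each of 15 comparisons of a compound with DMSO (columns), on the deposited log2 scale; colour and printed number give compound minus DMSO, and an asterisk marks an adjusted p under 0.05. The 11 marked values fall in 3 columns: MS177 in T47D-TR (6), MS177-N1 in T47D-TR (4) and MS177 in BT-549 (1). The compounds of a line and time share their DMSO libraries.

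Negative controls and inhibitors gave 4 calls among the 9 genes in 11 comparisons with DMSO, all with MS177-N1 in T47D-TR. There, ELOB had 4063 and 4782 normalized counts with MS177-N1, against 2118 and 1404 with DMSO, 2.51-fold higher (log2 difference 1.21 ± 0.17, adjusted p = 0.0028). RBX1 had 980.6 and 1093 normalized counts, against 605.8 and 451.1, 1.96-fold higher (log2 difference 0.71 ± 0.13, adjusted p = 0.00425). ELOC had 1688 and 1742 normalized counts, against 1277 and 1125, 1.43-fold higher (adjusted p = 0.0245). CUL2, the scaffold (chromosome 10, 35008551 to 35090642), had 559.7 and 324.5 normalized counts with MS177-N1, against 640.5 and 749.1 with DMSO, 1.57-fold lower (adjusted p = 0.0467). With all T47D-TR libraries of 48 h in 1 fit none of the 4 passed (adjusted p = 0.0716 to 0.0978). RBX1 lost its call without DMSO replicate 2 (adjusted p = 0.0693), ELOC without that library or either MS177-N1 library (0.0526 to 0.171), and CUL2 without either DMSO library or MS177-N1 replicate 2 (0.0896 to 0.393). RBX1 was thus higher with MS177-N1 and lower with MS177 in the same line, each against the same vehicle libraries, and 27.5% of 10576 tested genes were called with MS177-N1 (14.9% higher and 12.6% lower).

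No member passed with MS177-N2 in BT-549 (3.42% of genes called), C24 in T47D (0.847%), MS177-N1 in T47D (0.179%), MS177-N2 in T47D-TR (0.175%), C24 in BT-549 (0.134%) or C24 in T47D-TR (0.00851%). None passed where limma called no gene at all (0%). Those were MS177-N2 in T47D, with 522 genes at an unadjusted p under 0.05, MS177-N1 in BT-549, with 309, MS8815-N, with 289, and EPZ-6438, with 157. With the replicate number as a block, MS177-N1 in BT-549 had 2883 genes called, 5 of them members that fell. In T47D the 3 other compounds left VHL between 3068 and 3551 normalized counts and CRBN between 809.5 and 980.2, against 3219 and 3311 for VHL and 921.4 and 1056 for CRBN with DMSO. In BT-549 all 6 libraries of those compounds lay below both DMSO libraries for CRBN (1092 to 1326, against 1462 and 1528) and for VHL (5479 to 6543, against 6598 and 7580), with adjusted p-values of 0.307 to 0.895. With MS8815-N, CRBN had 693.9 and 325.6 normalized counts and VHL 355.3 and 227, and with EPZ-6438 CRBN had 481.4 and 626.4 and VHL 298.6 and 377.4, with no member past the test.

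The libraries also differed by transcript length. In each treated library, the median log2 difference from DMSO of genes with a principal transcript under 1000 bases was set against that of genes over 5000 bases. This short-minus-long difference was 1.73 and −0.44 in the MS177 libraries of T47D, 0.88 and 1.07 with MS177-N1 in T47D-TR, 0.82 and −0.13 with MS8815, and −0.33 and 0.39 with MS177 in BT-549. ELOB, at 991 bases, RBX1, at 1188, and ELOC, at 1976, lay above the DMSO mean in all 7 treated libraries where it exceeded 0.5, and below it in all 3 where it was under −0.5. CRBN, at 2206 bases, did the same, and VHL, at 3737, lay above in 5 of the 7 and below in all 3. Of 11963 genes, 13.2% lay above in all 7 and below in all 3, among them 52.4% of the genes under 1000 bases and 2.82% of those over 5000 bases. RBX1 fell with MS177 in T47D-TR, where this difference was 0.12 and 0.39. It also lay 1.08 below the DMSO mean on the log2 scale in MS177 replicate 2 of T47D, where the difference was −0.44, and 2.19 below it in MS8815-N replicate 2, where the difference was 0.02. The part of this difference in the members' values was not tested.

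With a trend on transcript length removed from each library, a setting added after seeing the data, all 6 calls with MS177 in T47D-TR remained, as did VHL in BT-549 (log2 difference 1.05, adjusted p = 0.00366). RBX1 then also passed in BT-549 (−0.60, limma adjusted p = 0.0113), where 47.1% of 12099 tested genes were called, against 27.3% with the trend kept. In T47D-TR the share was 67.7% with MS177, against 62.5%, and 17.1% with MS177-N1, against 27.5%. With MS177-N1 in T47D-TR, ELOB (0.83) and RBX1 (0.39) kept their calls, while ELOC (adjusted p = 0.0607) and CUL2 (0.144) lost theirs.

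**Figure D3:**
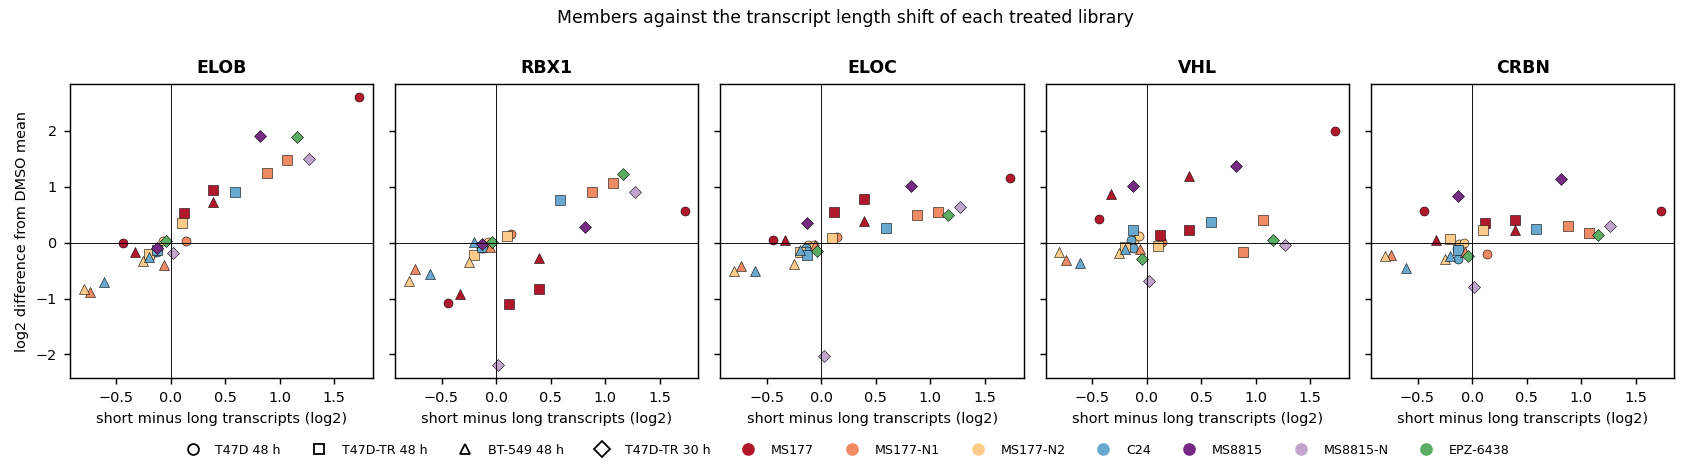
Log2 difference of 5 genes from the DMSO mean of their line and time (y) against the short-minus-long transcript difference (x, log2) in each of 29 treated libraries; colour gives the compound and shape the line and time. ELOB climbs along the x axis to MS177 replicate 1 of T47D at x = 1.73, and the T47D-TR MS177 libraries lie 1.10 and 0.84 below DMSO for RBX1 at x = 0.12 and 0.39.

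MS177 was set against MS177-N1, MS177-N2 and C24 at the same dose and time to ask whether the members' levels differed between compounds. These 9 comparisons, and 2 of MS8815, used log2(normalized count + 1). In BT-549, VHL was higher with MS177 than with each of the others: the log2 difference was 1.25 ± 0.15 against MS177-N1 (adjusted p = 0.000318), 1.21 ± 0.15 against MS177-N2 (adjusted p = 0.000351) and 1.27 ± 0.15 against C24 (adjusted p = 0.000253). CRBN was higher with MS177 than with MS177-N2 (log2 difference 0.40 ± 0.12, adjusted p = 0.0281) and C24 (0.48 ± 0.12, adjusted p = 0.0128), and missed the threshold against MS177-N1 (95% interval 0.06 to 0.60, adjusted p = 0.0594). ELOC was higher with MS177 than with MS177-N2 (0.66, adjusted p = 0.0247), and CUL2 higher than with C24 (0.34, adjusted p = 0.0338). CRBN against MS177-N2 missed the threshold under 3 other settings (limma, adjusted p = 0.0504 to 0.0763) and passed under 3. CUL2 against C24 also missed it under 3 (0.0523 to 0.0984) and passed under 3. VHL kept all 3 calls when any 1 library was left out. CRBN lost its calls without MS177 replicate 2 (adjusted p = 0.187 against MS177-N2 and 0.102 against C24), without either MS177-N2 library (0.0834 and 0.105) or without C24 replicate 1 (0.0976). ELOC lost its call without MS177 replicate 2 or either MS177-N2 library (adjusted p = 0.0651 to 0.149), and CUL2 without any 1 of the 4 libraries (0.0652 to 0.158). Called genes made up 33.1% of 16345 against MS177-N1, 37.2% against MS177-N2 and 35.7% against C24.

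In T47D-TR the cereblon ligase's scaffold and RING subunit differed between compounds, and the receptors did not pass. RBX1 was lower in MS177-treated cells than in those given MS177-N1 (log2 difference −1.95 ± 0.27, adjusted p = 0.000367), MS177-N2 (−0.92 ± 0.27, adjusted p = 0.0209) and C24 (−1.31 ± 0.27, adjusted p = 0.00357). CUL4B was lower as well, with log2 differences of −0.33 against MS177-N1 (adjusted p = 0.0468), −0.78 against MS177-N2 (adjusted p = 0.000837) and −0.47 against C24 (adjusted p = 0.0113). The first of these 3 passed in 1 of 6 other settings and was lost when any 1 of its 4 libraries was left out (adjusted p = 0.0531 to 0.217). CUL4A was lower than with MS177-N2 (−0.34, adjusted p = 0.036), and ELOC higher than with MS177-N2 (0.71, adjusted p = 0.00975) and C24 (0.64, adjusted p = 0.015). RBX1 against MS177-N1 and C24, and CUL4B against MS177-N2, kept their calls when any 1 library was left out. RBX1 against MS177-N2 lost its call without replicate 1 of either compound (adjusted p = 0.111 and 0.121), CUL4B against C24 without MS177 replicate 1 (0.0804), and CUL4A without any 1 library (0.0965 to 0.165). ELOC lost its calls without MS177 replicate 2 (adjusted p = 0.077 and 0.105), MS177-N2 replicate 2 (0.0747) or C24 replicate 1 (0.0774). For CRBN the 95% intervals ran from −0.20 to 0.49 against MS177-N1, −0.12 to 0.57 against MS177-N2 and −0.03 to 0.66 against C24. Called genes made up 50.7% of 15022 against MS177-N1, 46.4% against MS177-N2 and 48.1% against C24.

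In T47D, CRBN was higher with MS177 than with MS177-N2 (log2 difference 0.58 ± 0.15, adjusted p = 0.0463) and C24 (0.76 ± 0.15, adjusted p = 0.0199), and missed the threshold against the lone MS177-N1 library (0.76 ± 0.18, adjusted p = 0.0561). Both calls were lost without either library of the other compound (adjusted p = 0.118 to 0.265), and when the fit held only the compared libraries (adjusted p = 0.298 against MS177-N2 and 0.224 against C24). Both calls also missed the threshold with the replicate number as a block (limma, adjusted p = 0.096 against MS177-N2 and 0.0505 against C24). Called genes made up 8.56% of 17341 against MS177-N1, 16.7% against MS177-N2 and 19.3% against C24, and no other member passed. MS8815 gave no member call against MS8815-N (0.0575% of 13919 genes called) or EPZ-6438 (0.108%). VHL differed by 1.55 ± 0.36 on the log2 scale from MS8815-N (adjusted p = 0.195), where the median gene differed by 0.52, and by 1.31 ± 0.36 from EPZ-6438 (adjusted p = 0.326).

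**Figure D4:**
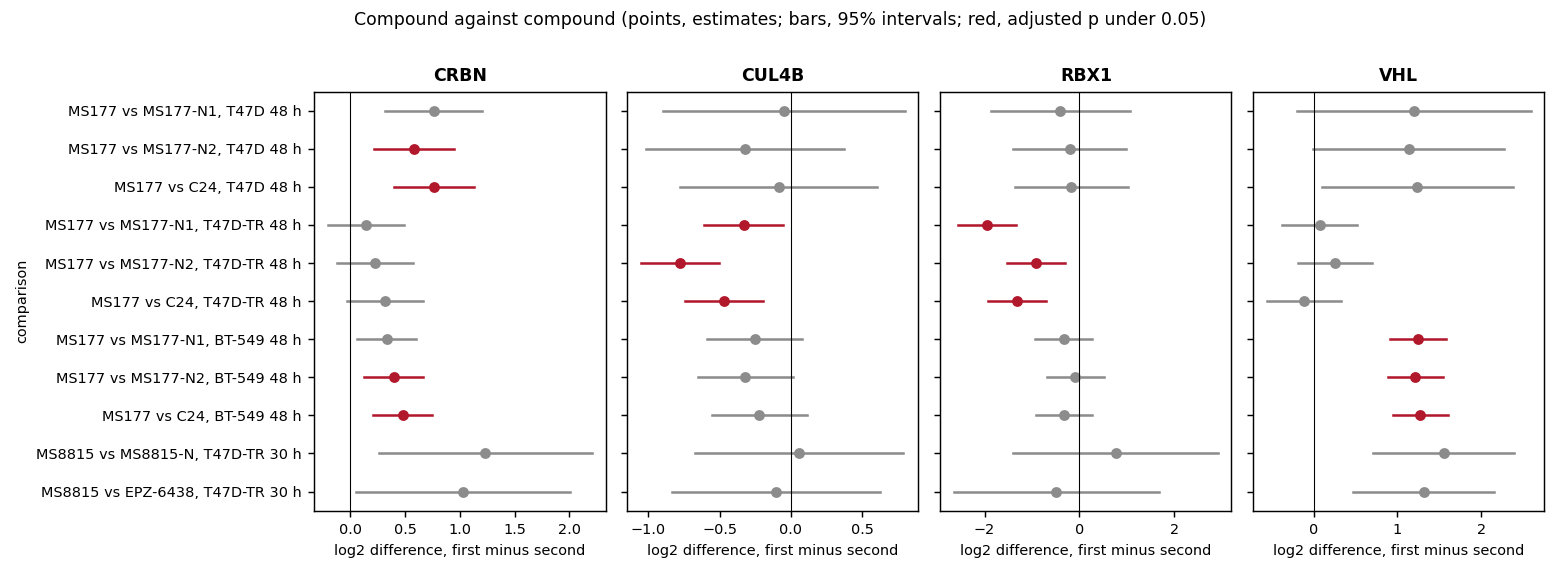
Log2 difference (x, first compound minus second, on log2(normalized count + 1)) of CRBN, CUL4B, RBX1 and VHL in 11 comparisons between compounds (rows); points are estimates, bars 95% intervals, and red marks an adjusted p under 0.05. VHL is red in the 3 BT-549 rows and RBX1 and CUL4B in the 3 T47D-TR rows of 48 h.

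Responses to MS177 were compared between lines in 1 model each. The VHL response was smaller in T47D-TR than in BT-549 (difference of log2 differences −0.85 ± 0.24, adjusted p = 0.0286), and so was that of CUL4A (−0.56 ± 0.14, adjusted p = 0.0194), whose treated libraries lay below the vehicle in T47D-TR and above it in BT-549. These are 2 calls among 9 genes, where 31.9% of 12208 genes were called. Neither passed with the replicate number as a block (adjusted p = 0.08 for VHL and 0.132 for CUL4A), and each was lost without 1 of several libraries. No member passed between T47D-TR and T47D (0.0307% called) or between T47D and BT-549 (1.48% called). For VHL the 95% interval was −2.61 to 0.55 between T47D-TR and T47D and −1.47 to 1.83 between T47D and BT-549.

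Other genes of the pathway were counted by list with MS177 in T47D-TR, where 31.1% of all tested genes were higher and 31.4% lower, and each count stands against those shares. Of 10 genes that attach NEDD8 to cullins, which activates the ligases, 4 rose and 1 fell. NAE1, a subunit of the NEDD8 E1 enzyme, had 375.7 and 370.9 normalized counts with MS177, against 895.0 and 741.2 with DMSO (2.19-fold lower, adjusted p = 0.000639). DCUN1D3, a DCN1-like protein of neddylation, was 2.10-fold higher (adjusted p = 0.00253) and DCUN1D2 1.96-fold higher (adjusted p = 0.00399). Of 11 tested genes of the COP9 signalosome, which removes NEDD8, and the CAND exchange factors, 4 rose and 3 fell. COPS5, the catalytic subunit, was 1.87-fold higher (adjusted p = 0.00154) and COPS9 1.99-fold higher (adjusted p = 0.0136), while COPS7A was 2.84-fold lower (adjusted p = 0.00022) and COPS7B 2.40-fold lower (adjusted p = 0.000451).

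Of 9 E2 and ARIH enzymes, which pass ubiquitin to substrates, 4 rose and 1 fell in T47D-TR. UBE2D2 had 2395 and 2380 normalized counts with MS177, against 1314 and 1303 with DMSO (1.83-fold higher, adjusted p = 0.000376). ARIH1 was 1.67-fold higher (adjusted p = 0.00178) and ARIH2 1.401-fold lower (adjusted p = 0.0144). Among 22 tested receptors and partners of CUL4-DDB1 other than CRBN, 6 rose and 8 fell. DTL, the receptor that marks the replication factor CDT1, had 114.8 and 69.56 normalized counts with MS177, against 1034 and 1829 with DMSO, 15.5-fold lower (adjusted p = 0.000131). WDTC1 was 2.61-fold lower, DCAF13 2.32-fold higher and DCAF10 1.95-fold higher (adjusted p = 0.000123, 0.000403 and 0.00153 in that order).

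Of 11 receptors of CUL2 other than VHL, 5 rose and 4 fell in T47D-TR, with KLHDC3 2.64-fold and LRR1 2.22-fold lower and KLHDC10 2.19-fold and FEM1B 2.11-fold higher. Of 7 other cullins, RING subunits and adaptors, 1 rose (CUL3, 1.53-fold) and 2 fell (CUL7, 2.33-fold, and RNF7, the partner of CUL5, 1.32-fold). Of 15 tested genes of the HIF pathway, which VHL restrains, 5 rose and 6 fell. VEGFA, the angiogenic factor, had 2237 and 1873 normalized counts with MS177, against 430.1 and 553.4 with DMSO, 4.18-fold higher (adjusted p = 6.35e-05), and the demethylase gene KDM3A was 2.97-fold higher. NDRG1 was 3.04-fold and CA12, a carbonic anhydrase, 2.67-fold lower. Of 7 tested transcripts of cereblon substrates, 2 rose (ZNF692, 1.79-fold, and GSPT1, 1.72-fold) and 2 fell (ZBTB16, 4.51-fold, and KCNMA1, 2.14-fold). The lists' median log2 differences lay between −0.03 and 0.22, and that of all tested genes at 0.00.

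The same lists were counted in BT-549 with MS177, where 27.3% of all tested genes were called, against 62.5% in T47D-TR. Of 16 tested HIF pathway genes, 3 rose and 4 fell. VEGFA had 4514 and 3847 normalized counts, against 926.1 and 1066 with DMSO, 4.20-fold higher (adjusted p = 0.00187), and NDRG1 was 2.89-fold higher, where it was lower in T47D-TR. CA12 was 3.18-fold and EGLN3, a prolyl hydroxylase of HIF, 2.85-fold lower. Among 24 other CUL4 receptors 3 rose and 2 fell, led by DCAF4 (1.97-fold higher), DCAF10 (1.495-fold higher), DCAF6 (1.43-fold lower) and FBXW5 (1.38-fold lower). Among 11 other CUL2 receptors FEM1B rose 1.75-fold and PRAME fell 2.13-fold, and among the other cullins CUL9 rose 1.80-fold. DCUN1D3 (1.45-fold) and UBE2D2 (1.41-fold) were the genes called in the NEDD8 and E2 lists, and no COP9 gene was called. Of 7 tested cereblon substrates, 3 rose, among them ZNF692 (1.86-fold) and CSNK1A1 (1.77-fold), and MEIS2 fell 1.76-fold. With MS8815 in T47D-TR, ADM, a HIF target, was the gene called in any of these lists (170.8 and 284.3 normalized counts, against 37.0 and 45.4 with DMSO, adjusted p = 0.0463), and with MS177 in T47D none was.

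Across the 29 treated libraries, each centred on its DMSO mean, METTL22 (r = 0.94), TM2D3 (0.94) and the E2 enzyme gene UBE2D1 (0.92) had the pattern most like CRBN among 8842 genes tested in all 15 tables, and SLC26A6 (−0.92) and TRPM4 (−0.90) the least like it. For VHL these were DFFA (r = 0.91), ATP6V1E1 (0.89) and DDX27 (0.88), with SLC39A10 (−0.90) and PBX3 (−0.88) at the other end. CRBN and VHL correlated with each other at r = 0.74, CRBN with ELOC at 0.82 and with its adaptor DDB1 at −0.42, and VHL with DDB1 at −0.70. These values describe libraries that share vehicles and the length difference above, and they carry no test. The 29 libraries also include MS8815-N replicate 2, with 6929 genes at the lowest value, and the MS177 pair of T47D that stood apart. The part of those libraries in the correlations was not tested.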

How the data were processed

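RNA was sequenced from polyadenylated transcripts of 3 cell lines (RNeasy extraction, NEBNext Ultra II library kit, per the labels' protocols). RSEM, DESeq and the build hg38 are named in the submitters' processing notes, without versions or roles, and whether counting used strand is not given in the sources used here. The deposited values are on a log2 scale with a floor in each table. Their form is that of a variance-stabilising transform applied table by table, which was read from the values and is not given in the sources used here. From these log2 values normalized counts were recovered by undoing the transform. Tables of T47D and BT-549 were joined by 1 factor each, and T47D-TR tables gene by gene through their shared DMSO libraries.

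Each compound was tested against DMSO on the deposited log2 values of its own table (genes more than 1 unit above the lowest value in at least 2 libraries), and compounds and lines on log2(normalized count + 1), keeping genes that reached 10 normalized counts in 2 or more libraries. The tool was limma 3.58.1 in R 4.3.3, with mean trend and robust variance, two-sided, Benjamini-Hochberg adjusted over all tested genes, at a threshold of 0.05, over 15, 11 and 3 comparisons. Steps were tested on simulated data. The 9 genes and all lists were chosen with earlier results of these data known. All 9 are named, and from each list at most the 2 largest rises and falls that passed, for MS177 and MS8815 against DMSO, and, for CRBN and VHL, the 3 genes most and 2 least correlated.

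Transcript lengths and positions come from GENCODE v29, and promoters from RefSeq. T47D and BT-549 depth was read from values that were whole multiples of 1 step (100%). For T47D-TR only 8.2% to 16.3% were whole, which leaves its depth unknown. Replicate deviations with a compound and with DMSO correlated from −0.725 to 0.734, so whether replicate numbers pair the samples is not settled. Other scales, pseudocounts, filters, scalings, sample sets, blocks and left-out libraries were tried.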

Additional observations from a re-analysis of the deposited data

Results flagged for a closer look

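The responses of VHL and CUL4A to MS177 passed the test of a difference between T47D-TR and BT-549, where 31.9% of 12208 genes were called. Neither passed with the replicate number as a block (limma, adjusted p = 0.08 for VHL and 0.132 for CUL4A). For VHL the difference of log2 differences, T47D-TR minus BT-549, was −0.853 ± 0.235 (limma, adjusted p = 0.0286). VHL had 1260 and 1329 normalized counts with MS177 and 991.9 and 1315 with DMSO in T47D-TR, and 12950 and 16170 with MS177 and 7580 and 6598 with DMSO in BT-549. Without either MS177 library or DMSO replicate 2 of T47D-TR, or without replicate 2 of either group of BT-549, the adjusted p was 0.0678 to 0.0854, and the difference −0.65 to −0.891.

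For CUL4A the difference was −0.563 ± 0.141 (adjusted p = 0.0194). CUL4A had 954.6 and 923.5 normalized counts with MS177 and 1179 and 1236 with DMSO in T47D-TR, and 6302 and 5745 with MS177 and 5035 and 5444 with DMSO in BT-549. The treated libraries lay below the vehicle in the first line and above it in the second, without overlap. Without replicate 2 of either group of T47D-TR, or replicate 1 of either group of BT-549, the adjusted p was 0.0549 to 0.0819.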

How the results depend on the processing

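The members had 11 calls against DMSO, and 10 to 14 under 8 other settings, 6 with all libraries of a line and time in 1 fit, and 27 with a crossed pairing, which was added after seeing the data because replicate deviations in some groups correlated below −0.1 (−0.725 for MS177 in BT-549). These correlations ran from −0.725 to 0.734, so whether replicate numbers pair the samples is not settled. The totals of calls need not hold the same genes. A replicate block made 14 calls against DMSO, of which 4 were among the 6 with MS177 in T47D-TR and 5 were with MS177-N1 in BT-549, which had none without it (2883 genes called, against 0, with a correlation of 0.734), 12 between compounds (18 without it) and 0 between lines (2 without it). It could not be fitted at 30 h against DMSO, whose replicates are numbered 3 and 4, or for MS177-N1 in T47D against DMSO. The 18 calls between compounds numbered 12 to 18 in all 6 settings. With MS177 in T47D, 1 member passed with all libraries, where 18.2% of genes were called (0 otherwise). With MS177 in BT-549, 2 passed with the length trend removed and 7 with the crossed pairing (1 otherwise). Those settings called 47.1% and 66.8% of all genes there, against 27.3% without them. MS177-N2 in BT-549 had 1 member lower with the length trend removed, and 1 higher and 4 lower with the crossed pairing, and C24 in BT-549 had 5 lower with the crossed pairing (0 otherwise for both). For MS177-N2 those settings called 10.3% and 34.1% of all genes in that order, against 3.42% without them. For C24 the crossed pairing called 2807 of 13394 genes, against 18 without it. With MS8815, 1 passed with the stricter filter, quantile scaling or no mean trend, and 2 with the length trend removed (0 otherwise). Those settings called 9.68%, 8.83%, 6.95% and 11.6% of genes in that order, against 6.25% without them. With 1 library left out, members called ranged from 0 to 9 for MS177 in T47D, 3 to 6 in T47D-TR, 1 to 2 in BT-549, and 0 to 7 for MS8815, where a lone library is assumed to vary like the other group. Calls over all genes also moved widely in these left-out fits for MS177 in T47D and for MS8815. The member counts of those fits are therefore not read as a result about the members. RBX1 did not pass the stricter filter in T47D-TR with MS177. CUL2 with MS177-N1 in T47D-TR missed the threshold under 7 settings (adjusted p = 0.0565 to 0.144). No named call changed sign. The cause of these shifts was not tested.

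Counts over all genes also moved. MS177 in T47D had 0 calls, against 3150 with all libraries, 481 with the length trend removed, 916 with the block and 1851 crossed. MS177 in T47D-TR had 6518, against 4156 with the stricter filter (6280 genes tested). MS177-N1 there had 2910, against 5 with all libraries and 1683 with the length trend removed. MS177 in BT-549 had 3953, against 9663 crossed, and MS8815 754, against 434 unfiltered, 11 with all libraries and 1263 with the length trend removed. In T47D, MS177 differed at 1485 genes from MS177-N1, 2894 from MS177-N2 and 3349 from C24, against 44, 0 and 0 with the compared libraries alone.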

Other observations

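Ratios of members within a library need no shared scale between libraries. In T47D-TR the height of a ratio carries factors that differ by gene, so it is read only against DMSO of that line and time. The members differ in transcript length (2206 bases for CRBN, 3737 for VHL and 4506 for DDB1). The part of the length difference above in these ratios was not tested. The ratio of VHL to CRBN per kb was 4.97 and 5.46 with MS177 in BT-549, against 2.93 and 2.66 with DMSO. It was 5.29 and 1.77 with MS177 in T47D, against 2.06 and 1.85 with DMSO, and 0.660 and 0.671 in T47D-TR, against 0.617 and 0.939, and both overlapped. CRBN over its adaptor DDB1 was 0.494 and 0.371 with MS8815, against 0.195 and 0.201 with DMSO at 30 h. It was 0.256 and 0.152 with MS177 in T47D, against 0.0909 and 0.11 with DMSO, and 0.346 and 0.327 in T47D-TR, against 0.242 and 0.231. In BT-549 it was 0.297 and 0.376 with MS177, against 0.316 and 0.284 with DMSO, which overlapped.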
